A study of Mus musculus with 7 samples.

Results

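The genes described here are 8 markers of monocytes, the circulating phagocytes made in bone marrow: Lyz2, Cd68, Mpeg1, Ccr2, Cx3cr1, F13a1, Fn1 and Ms4a6c. They were taken by name from the deposited table, where all 8 were found among 50435 gene rows. All 8 had a mean of at least 1 RPM (reads per 1000000 reads of a library) over the 7 libraries and so were tested.

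The 3 DT samples came from mice given 200 ng of diphtheria toxin (DT) in PBS into the abdomen, and the 4 PBS samples from mice given PBS alone. In both groups the mice were irradiated wild-type recipients of Zbtb46dtr marrow, in which the toxin receptor is tied to Zbtb46, a gene used to mark classical dendritic cells. The injection followed 8 weeks after the transplant, and marrow was taken 1 day later. The receptor was carried by the transplanted marrow in PBS and DT mice alike, so no group shows the toxin without the receptor. The labels call the samples biological replicates and do not say whether animals were pooled. The sort aimed at endothelial cells of the marrow sinusoids, its wide venous vessels. It kept CD31-positive, Sca1-negative cells after removal of those positive for the blood cell antigens CD45, Ter119, Gr1 and CD11b. Defining endothelial genes were nearly absent: the 12 genes restricted to endothelium together gave 10.2 to 18.7 RPM in DT and 1.45 to 9.35 RPM in PBS, and Tek, Robo4, Cldn5, Flt4 and Emcn averaged under 1 RPM in both groups.

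Monocytes arise from myeloid progenitors under the growth factor receptor Csf1r and the transcription factor PU.1 (Spi1). Classical monocytes carry Ccr2 and much Ly6C, leave the marrow through its sinusoids in response to Ccr2 ligands, and can become macrophages or dendritic-like cells in tissues. Nonclassical monocytes carry much Cx3cr1 and little Ly6C and patrol vessel walls. Circulating monocytes bear CD45 and CD11b, both of which the sort was set to remove.

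The libraries held an estimated 33195021 to 51245260 reads, and 3 reads equal 0.0585 to 0.0904 RPM, a limit for counting error alone. Between libraries, log2 values had Pearson correlations of 0.962 to 0.966 among DT libraries, 0.908 to 0.963 among PBS libraries and 0.798 to 0.875 between the groups. DT exceeded PBS in 13.4% of the 14100 genes that limma tested and was below it in 18.6%, both at a threshold of 0.05 on the adjusted p. The median log2 change was -0.23. Under median-ratio scaling the shares were 17.0% higher and 8.93% lower, and the median was -0.01.

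Since a gene's reads can be mistaken for those of a near copy, the first 90 coding bases of Lyz2 and of its neighbour Lyz1 are shown, from GENCODE vM21 transcripts on the minus strand of mm10. Those of Lyz2 lie at chr10:117282153-117282242 and those of Lyz1 at chr10:117292749-117292838. Capitals mark the 7 bases at which they differ.
Lyz2: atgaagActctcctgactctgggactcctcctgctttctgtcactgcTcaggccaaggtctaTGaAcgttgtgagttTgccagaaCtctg
Lyz1: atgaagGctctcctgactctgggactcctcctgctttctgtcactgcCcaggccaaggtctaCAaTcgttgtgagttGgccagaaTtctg
Over the 444 coding bases before the stop codon they were 95.05% identical. Reads had 50 bases, and 15.4% of the 50-base words of Lyz2 transcripts also occurred in Lyz1, so a read from these stretches cannot be assigned by its sequence.

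Promoters are shown because the 8 genes moved in the same direction. RefSeq promoter sequences (GRCm38.p6) were matched by symbol for 7 of the 8 members. The 250 bases before the listed start were searched on both strands for GAGGAA, the core of PU.1 sites, for TTGCNNAA, a form of C/EBP sites, and for GGAA, any 2 bases and GAAA, a joint site of PU.1 and IRF factors. Of the windows given here, that of Cd68 holds the first 2 of these motifs, that of F13a1 only GAGGAA and that of Mpeg1 none of the 3. A further listed window of F13a1, not shown, holds no match. Capitals mark matches.
Cd68 (chr11:69666171-69666420, minus strand): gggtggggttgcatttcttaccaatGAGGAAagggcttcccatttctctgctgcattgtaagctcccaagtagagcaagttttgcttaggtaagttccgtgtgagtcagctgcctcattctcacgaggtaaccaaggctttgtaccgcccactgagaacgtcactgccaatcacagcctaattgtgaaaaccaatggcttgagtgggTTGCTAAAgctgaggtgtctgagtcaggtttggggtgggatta
F13a1 (chr13:37050245-37050494, minus strand): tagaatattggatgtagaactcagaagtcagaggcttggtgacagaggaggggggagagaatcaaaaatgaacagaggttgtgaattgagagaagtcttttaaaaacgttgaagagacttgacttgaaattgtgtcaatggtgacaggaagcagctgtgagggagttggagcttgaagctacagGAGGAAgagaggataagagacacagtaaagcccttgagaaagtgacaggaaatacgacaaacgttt
Mpeg1 (chr19:12460520-12460769, plus strand): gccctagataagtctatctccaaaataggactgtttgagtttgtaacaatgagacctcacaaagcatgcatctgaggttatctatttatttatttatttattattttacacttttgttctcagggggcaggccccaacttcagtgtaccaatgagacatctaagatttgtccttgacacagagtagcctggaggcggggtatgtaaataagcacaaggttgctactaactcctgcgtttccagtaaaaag
GAGGAA occurred in 2 of the 7 members, Cd68 and F13a1, and in 25.9% of 27025 genes with a listed window. TTGCNNAA occurred in 1 of 7, Cd68, and in 10.8% of genes, and the joint site in 0 of 7 and in 2.68% of genes. A match or its absence in these windows is a description of the letters and says nothing of binding.

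DT was set against PBS to see how RNA of the sorted samples differed once Zbtb46-expressing cells had been targeted. All 8 monocyte markers were higher in DT, by 4.75-fold for Cx3cr1 to 16.1-fold for Lyz2 in ratios of group means. In each of the 8 the lowest DT library lay above the highest PBS library, which held for 16.1% of tested genes. In limma's fit over all 14100 tested genes, 8 of 8 were higher at an adjusted p under 0.05, against 13.4% of tested genes. The members and the lists below were chosen with earlier results of these data known, so counts over them are descriptive. Changes are given on the log2(RPM + 1) scale, which understates those of low genes; over the 8 members they ranged from 2.11 to 4.04 with a median of 3.13. In such mixed samples more cells of a type and more RNA per cell cannot be told apart.

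**Figure D1:**
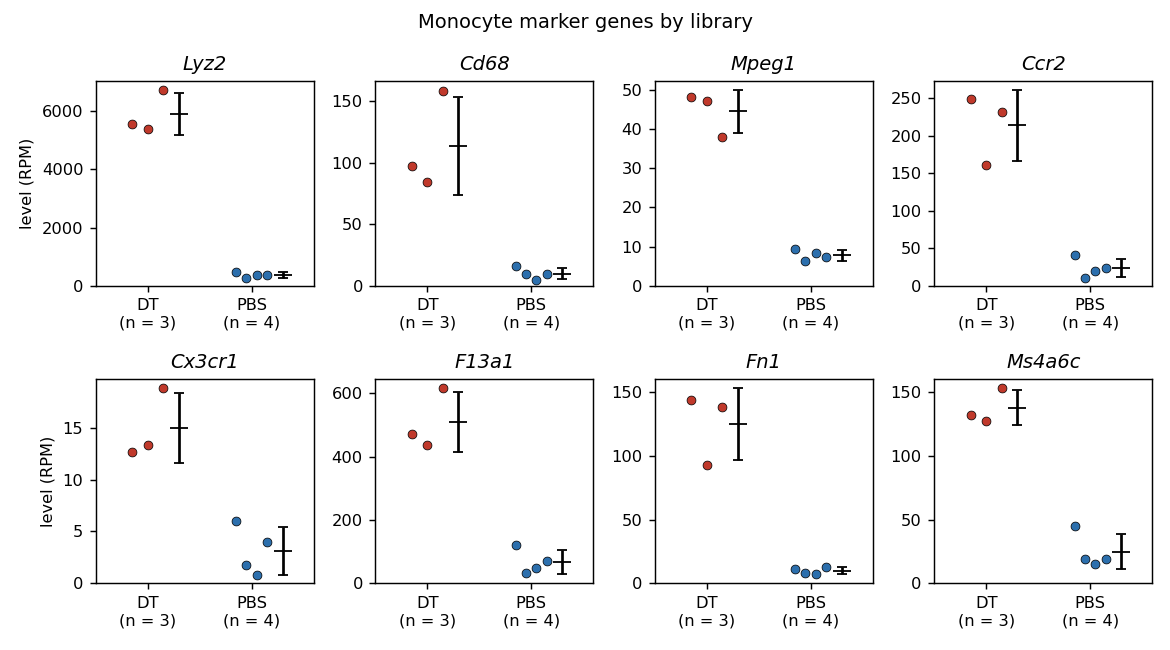
Level of each monocyte marker in RPM (vertical axes, each from 0) in the 3 DT libraries, in red, and the 4 PBS libraries, in blue; the bars give mean and SD. In all 8 panels the DT libraries lie above the PBS libraries, from 12.6 to 18.8 against 0.817 to 6.03 RPM for Cx3cr1 up to 5377 to 6715 against 254 to 487 RPM for Lyz2.

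Lyz2, Cd68 and Mpeg1 belong to the phagocyte's digestive machinery. Lyz2 (chromosome 10, 117277331 to 117282321 in mm10, GENCODE vM21) encodes the lysozyme of myeloid cells, which cuts bacterial cell walls and is made by monocytes, macrophages and neutrophils. It was at 5577, 5377 and 6715 RPM in DT replicates 1 to 3 and at 487, 254, 364 and 358 RPM in PBS replicates 1 to 4. The groups were far apart: the lowest DT library was 11.0-fold above the highest PBS library. The mean was 5890 ± 722 RPM in DT (SD, n = 3) and 366 ± 95.3 RPM in PBS (SD, n = 4), a log2 change of 4.04 (95% interval 3.56 to 4.51; limma, adjusted p = 2.48e-06). Lyz1, the lysozyme best known from Paneth cells of the gut, was at 3.75 ± 1.00 RPM in DT and 0.141 ± 0.0536 RPM in PBS (SD) and also rose, by 2.04 (limma, adjusted p = 0.000582). How the authors placed reads shared by Lyz2 and Lyz1 is not given in the sources used here.

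Cd68 (chromosome 11, 69664213 to 69666153) encodes a heavily glycosylated protein of the late endosome and lysosome membrane that is used to stain macrophages. It was at 97.6, 84.2 and 159 RPM in DT replicates 1 to 3, against 15.8, 9.58, 4.27 and 9.57 RPM in PBS replicates 1 to 4. The third DT library was the high one, which gave Cd68 the largest spread of the 8 members in DT, a coefficient of variation of 34.96%. The log2 change was 3.47 (SE 0.37; limma, adjusted p = 0.000122), an 11.6-fold ratio of means. No 50-base word of its transcripts occurs in another GENCODE transcript.

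Mpeg1 (chromosome 19, 12460779 to 12465283) encodes perforin-2, a pore-forming protein of macrophages that acts on engulfed bacteria. It was at 48.1, 47.2 and 38.0 RPM in DT replicates 1 to 3 and at 9.43, 6.18, 8.38 and 7.27 RPM in PBS replicates 1 to 4. PBS values were closer together than those of any other member, with a coefficient of variation of 17.9%. Mpeg1 rose by 2.37 on the log2 scale (SE 0.22; limma, adjusted p = 4.80e-05), or 5.69-fold, and it too shares no 50-base word with another gene. Its relative Prf1, the perforin of cytotoxic lymphocytes, was at 4.02 ± 2.61 RPM in DT and 0.818 ± 0.901 RPM in PBS (SD) and missed the threshold (limma, adjusted p = 0.0541). Of the LAMP proteins related to Cd68, Lamp2 rose by 1.46 (limma, adjusted p = 0.000113), whereas Lamp1 was at 54.3 ± 10.9 RPM in DT and 50.3 ± 10.4 RPM in PBS (SD).

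Ccr2 and Cx3cr1 are chemokine receptors that lie on chromosome 9, at 124101950 to 124113557 and at 119901616 to 120069879. Ccr2, the receptor for Ccl2 and related ligands, was at 249, 160 and 231 RPM in DT replicates 1 to 3, against 40.3, 10.7, 20.2 and 23.8 RPM in PBS replicates 1 to 4. PBS replicate 1 was the highest of the PBS libraries and still 3.98-fold below the lowest DT library. Ccr2 rose 8.99-fold, by 3.23 on the log2 scale (SE 0.36; limma, adjusted p = 0.000164). Cx3cr1, the receptor for fractalkine, was the least abundant member and the one with the smallest change. It was at 12.6, 13.4 and 18.8 RPM in DT replicates 1 to 3 and at 6.03, 1.74, 0.817 and 3.98 RPM in PBS replicates 1 to 4. The PBS values spanned 7.37-fold and their highest was 2.09-fold below the lowest DT value. Cx3cr1 rose by 2.11 on the log2 scale (SE 0.45; limma, adjusted p = 0.00660).

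The level of Ccr2 relative to Cx3cr1 was compared within each library, since this ratio is higher in classical than in nonclassical monocytes. On the log2(RPM + 1) scale Ccr2 exceeded Cx3cr1 by 4.20, 3.49 and 3.55 in DT replicates 1 to 3 and by 2.55, 2.10, 3.54 and 2.31 in PBS replicates 1 to 4. The groups overlapped, because PBS replicate 3 lay above DT replicate 2. As a plain ratio of RPM, PBS replicate 3 was the highest of all 7 libraries, at 24.7. The DT libraries were at 12.0 to 19.7 and the other PBS libraries at 5.97 to 6.68. The mean was 3.75 ± 0.39 in DT (SD, n = 3) and 2.63 ± 0.64 in PBS (SD, n = 4). The difference of 1.12 missed the threshold in an exact two-sided permutation test (p = 0.0857 over 35 splits, where the smallest p possible is 0.0286). With a pseudocount of 5 RPM in place of 1 the difference was 1.68 and reached that smallest p, and with 0.1 it was 0.75 (exact permutation p = 0.314), so the call depended on the pseudocount.

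**Figure D2:**
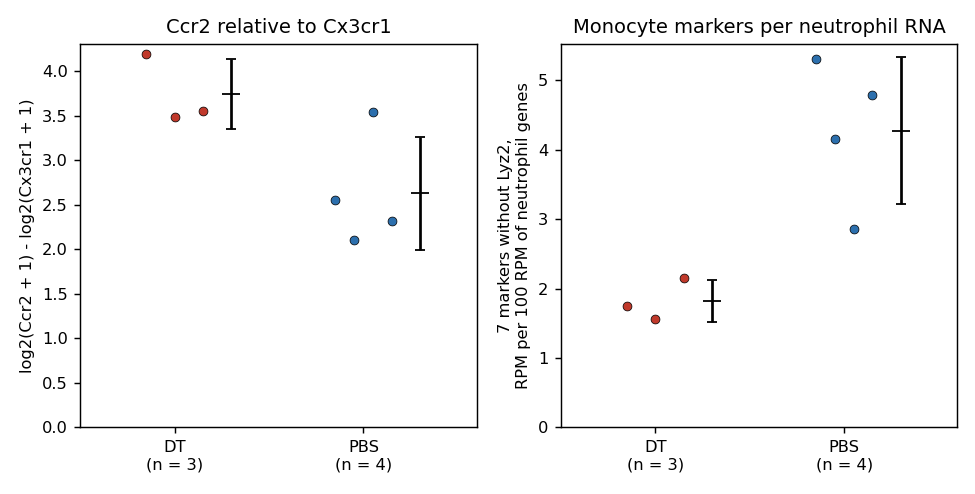
Left, the within-library log2 difference between Ccr2 and Cx3cr1 (vertical axis, on log2(RPM + 1)); right, the summed RPM of the 7 markers other than Lyz2 for each 100 RPM of neutrophil genes. Points are the 3 DT libraries, in red, and the 4 PBS libraries, in blue, with mean and SD beside them. The groups overlap on the left but not on the right, where DT lies at 1.56 to 2.15 and PBS at 2.85 to 5.30. With Lyz2 included, which is not plotted, the ranges overlap. The neutrophil sum itself rose 18.7-fold.

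Ccr1, a receptor for inflammatory chemokines, was also higher. It was at 249 ± 21.3 RPM in DT and 9.52 ± 6.91 RPM in PBS (SD) and its log2(RPM + 1) change was 4.77 (limma, adjusted p = 2.60e-05). Of the 50-base words of Ccr2, 1.91% also occur in transcripts of other genes.

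F13a1 and Fn1 encode secreted proteins. F13a1 (chromosome 13, 36867178 to 37050244) encodes the catalytic subunit of clotting factor XIII, which crosslinks fibrin and is made by monocytes, macrophages and megakaryocytes. It was at 472, 437 and 616 RPM in DT replicates 1 to 3, against 120, 31.4, 49.9 and 70.9 RPM in PBS replicates 1 to 4. Every DT library was at least 3.63-fold above every PBS library. F13a1 rose 7.46-fold, by 3.03 on the log2 scale (SE 0.37; limma, adjusted p = 0.000285). Of 11 tested megakaryocyte and platelet markers none passed (limma, adjusted p above 0.05), against 13.4% of all tested genes higher and 18.6% lower. Pf4 was at 41.1 ± 27.5 RPM in DT and 45.8 ± 25.5 RPM in PBS (SD). Ppbp was at 20.3 ± 16.7 RPM in DT and 41.3 ± 31.9 RPM in PBS (SD). The 12 listed megakaryocyte genes summed to 69.3 to 199 RPM in DT and 69.3 to 285 RPM in PBS. The part of megakaryocytes in the F13a1 values was not tested.

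Fn1 (chromosome 1, 71585520 to 71653200) encodes fibronectin, a matrix protein that integrins bind and that classical monocytes, stromal cells and endothelium make. It was at 144, 92.9 and 139 RPM in DT replicates 1 to 3 and at 11.5, 8.02, 7.35 and 12.9 RPM in PBS replicates 1 to 4. It was the one member whose highest PBS library was replicate 4 rather than replicate 1. Fn1 rose 12.6-fold, by 3.53 on the log2 scale (SE 0.25; limma, adjusted p = 7.99e-06). Stromal markers were low: the 12 listed genes summed to 20.4 to 50.6 RPM in DT and 3.98 to 64.4 RPM in PBS. None of 5 tested passed, against 13.4% of all tested genes higher and 18.6% lower. Col3a1, Dcn, Lum, Pdgfra, Lepr, Postn and Col6a1 averaged under 1 RPM in both groups. The part of stromal or endothelial cells in the Fn1 values was not tested. Of the most abundant stromal markers, Cxcl12 was at 25.0 ± 11.2 RPM in DT and 10.9 ± 9.92 RPM in PBS and Sparc at 5.50 ± 3.25 RPM in DT and 3.93 ± 6.10 RPM in PBS (SD).

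Ms4a6c (chromosome 19, 11469366 to 11482192) encodes a membrane protein with 4 predicted passes, of a gene cluster that is expressed in blood cells and includes the B cell antigen CD20 (Ms4a1). It was at 132, 127 and 153 RPM in DT replicates 1 to 3, against 45.2, 19.2, 15.1 and 19.4 RPM in PBS replicates 1 to 4. The DT libraries were the closest together of all members, with a coefficient of variation of 9.94%, whereas PBS replicate 1 stood well above the other PBS libraries. Ms4a6c rose 5.57-fold, by 2.55 on the log2 scale (SE 0.32; limma, adjusted p = 0.000315). An antisense gene, BE692007 (11470166 to 11484578), covers 53.1% of its exon bases, and strand use in counting is not given in the sources used here. BE692007 was at 23.3 ± 2.78 RPM in DT and 10.9 ± 6.12 RPM in PBS (SD; log2 change 1.19; limma, adjusted p = 0.0460), so reads of the 2 genes cannot be told apart without strand.

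The neighbours of Ms4a6c in the cluster rose too. Ms4a6d, which shares no 50-base word with Ms4a6c, was at 23.5, 16.8 and 19.2 RPM in DT replicates 1 to 3. In PBS replicates 1 to 4 it was at 0.0001, 0.0523, 0.0001 and 0.0518 RPM, where 0.0001 is the offset that stands for 0 reads, so all PBS values were under 3 reads. Its log2(RPM + 1) change was 4.33 (limma, adjusted p = 4.15e-06), which depends on the pseudocount, as that of Ms4a8a does. Ms4a4c rose by 3.49 (limma, adjusted p = 1.06e-05) and Ms4a6b by 2.23 (limma, adjusted p = 0.00369). Ms4a8a was at 5.33 ± 0.668 RPM in DT and at 0.0206 ± 0.0138 RPM in PBS (SD), under 3 reads in each PBS library (log2 change 2.63; limma, adjusted p = 8.35e-05). Ms4a1 did not pass, at 149 ± 28.1 RPM in DT and 85.1 ± 65.8 RPM in PBS (SD; limma, adjusted p = 0.163). Of 20 tested genes related to the members by family, 14 were higher and 0 lower, against 13.4% and 18.6% of all tested genes. Their median log2 change was 2.14, against -0.23 for all tested genes. Ms4a4c and Ccr1 are counted both here and in the list of other classical monocyte genes below.

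**Figure D3:**
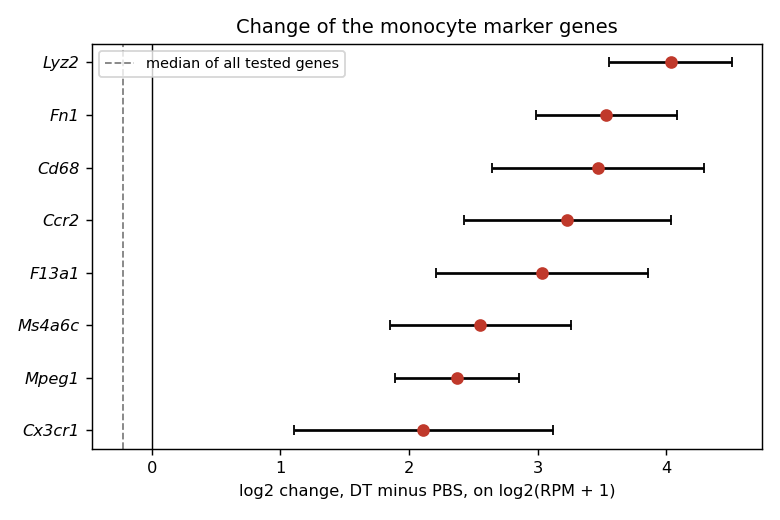
Log2 change of each monocyte marker, DT minus PBS on log2(RPM + 1), with its 95% interval from limma (n = 3 DT and 4 PBS libraries). All 8 intervals lie above 0, from 2.11 for Cx3cr1 to 4.04 for Lyz2; the dashed line is the median of all tested genes, -0.23.

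Levels were compared between members as RPM per kb of merged exons in GENCODE vM21. In DT the order was Lyz2 at 4475 ± 549, Cd68 at 90.3 ± 31.6, F13a1 at 75.5 ± 14.1, Ms4a6c at 67.1 ± 6.67, Ccr2 at 31.6 ± 6.91, Fn1 at 10.7 ± 2.41, Mpeg1 at 10.3 ± 1.29 and Cx3cr1 at 3.31 ± 0.750 RPM per kb (SD, n = 3). The ranges over DT libraries overlapped between Cd68, F13a1 and Ms4a6c and between Fn1 and Mpeg1, so across libraries these neighbours did not differ beyond their spread. Within each of the 3 DT libraries, however, Cd68 was above F13a1 and F13a1 above Ms4a6c, whereas Fn1 was above Mpeg1 in 2 of 3. In PBS the order was Lyz2 at 278 ± 72.4, Ms4a6c at 12.1 ± 6.72, F13a1 at 10.1 ± 5.70, Cd68 at 7.79 ± 3.74, Ccr2 at 3.51 ± 1.82, Mpeg1 at 1.80 ± 0.323, Fn1 at 0.850 ± 0.228 and Cx3cr1 at 0.697 ± 0.519 RPM per kb (SD, n = 4). There only Lyz2 and Ms4a6c, and Mpeg1 and Fn1, were neighbours whose ranges did not overlap. Within libraries, Cd68 was above Ccr2 and Ccr2 above Mpeg1 in 4 of 4 PBS libraries in spite of their overlapping ranges. Lyz2 came first and Cx3cr1 last in both groups.

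**Figure D4:**
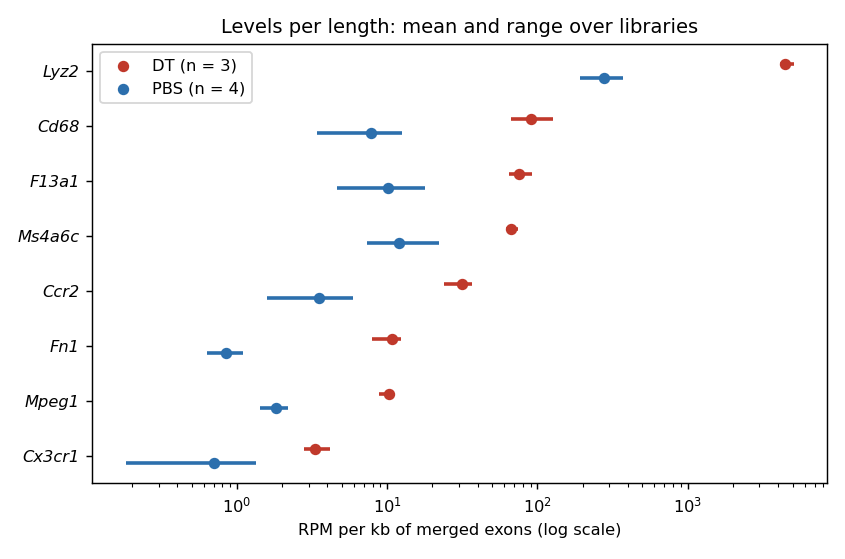
Mean level (points) and range over libraries (lines) of each monocyte marker in RPM per kb of merged exons, on a log axis, in DT (red, n = 3, upper line of each pair) and PBS (blue, n = 4, lower line). Lyz2 lies above all others, at a mean of 4475 in DT and 278 in PBS, and Cx3cr1 is lowest in both groups.

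The members varied together among PBS libraries. PBS replicate 1 had the highest PBS value of 7 of the 8 members, and the lowest value fell in replicate 2 for 4 members and in replicate 3 for the other 4. Among DT libraries replicate 3 was highest for 5 members and replicate 1 for 3, and replicate 2 was lowest for 6. The summed level of the 8 members was 6733, 6339 and 8070 RPM in DT replicates 1 to 3 and 736, 341, 470 and 506 RPM in PBS replicates 1 to 4. Over the same PBS libraries the 12 erythroid markers summed to 919, 11100, 7387 and 6825 RPM and the 16 neutrophil markers to 4689, 2092, 3712 and 3081 RPM; the part of either in the members' values was not tested. The coefficient of variation was larger in PBS than in DT for all 8 members, at 9.94% to 34.96% in DT and 17.9% to 74.4% in PBS. Without PBS replicate 1 all 8 members remained higher in DT at an adjusted p under 0.05.

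Other genes of classical monocytes rose alongside the members. Of 18 listed, 18 were tested, 18 were higher and 0 lower, against 13.4% and 18.6% of all tested genes. Their median log2 change was 3.08, with a range of 0.77 to 4.77. The list was drawn up with earlier results of these data known, so its counts only describe it. Ly6c2, the Ly6C antigen of these cells, was at 846, 855 and 899 RPM in DT replicates 1 to 3, against 178, 81.7, 96.6 and 96.8 RPM in PBS replicates 1 to 4 (log2 change 2.99; limma, adjusted p = 1.91e-05). Again PBS replicate 1 was the high PBS library. Tgfbi, a matrix protein made by monocytes, rose by 4.62 (limma, adjusted p = 1.77e-06) and Lgals3, the lectin galectin-3, by 4.20 (limma, adjusted p = 1.14e-05).

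Genes of nonclassical monocytes were less uniform. Of 16 tested 11 were higher, 0 lower and 5 did not pass, with a median log2 change of 2.01. Of all tested genes 13.4% were higher and 18.6% lower. When only genes averaging 5 RPM or more were kept, 7 were higher, against 14.3% of all genes then tested higher and 23.7% lower. That filter leaves out Ace, Cd300e, Itgax and Apoc2, which were higher in the main fit. Fcgr4, an Fc receptor of these cells, was at 28.9 ± 7.0 RPM in DT and 1.54 ± 0.911 RPM in PBS (SD; log2 change 3.60; limma, adjusted p = 7.14e-05). Itgal, the alpha chain of the integrin LFA-1 that patrolling monocytes use on vessel walls, rose by 2.86 (limma, adjusted p = 8.21e-05), Ear2, a ribonuclease, by 3.25 (limma, adjusted p = 0.000109) and Treml4 by 3.09 (limma, adjusted p = 0.000333). The 5 that did not pass, named after their values were seen, were Spn, Pou2f2, Cd36, Eno3 and Gngt2, with log2 changes from -0.34 to 1.91. Whether the classical and nonclassical lists differ was not tested. The part of other cell types in the values of Itgal and the other genes of these lists was not tested either.

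Among growth factor receptors and transcription factors of the lineage, 9 of 12 tested were higher, 2 lower and 1 did not pass. The shares over all tested genes were 13.4% higher and 18.6% lower. The median log2 change of the 12 was 1.63. Csf1r, which binds the macrophage growth factor Csf1, was at 85.2, 75.5 and 97.9 RPM in DT replicates 1 to 3 and at 12.9, 14.1, 10.3 and 12.7 RPM in PBS replicates 1 to 4 (log2 change 2.69; limma, adjusted p = 7.02e-06). Unlike most members it was not highest in PBS replicate 1. Csf2rb and Csf2ra, the chains of the GM-CSF receptor, rose by 3.00 and 2.38 (limma, adjusted p = 6.04e-06 and 3.11e-05), and Spi1 by 2.19 (limma, adjusted p = 0.00131). Irf8, which directs progenitors to monocytes and dendritic cells and was named after its values were seen, was the gene that did not pass, at 153 ± 10.6 RPM in DT and 108 ± 35.3 RPM in PBS (SD; limma, adjusted p = 0.0871). It passed without PBS replicate 1, with a log2 change of 0.75 (limma, adjusted p = 0.00524), under median-ratio scaling, with 0.80 (limma, adjusted p = 0.0406), and with sample weights, with 0.60 (limma, adjusted p = 0.0109). The 2 that fell, chosen in the same way, were Zeb2, by 0.84 (limma, adjusted p = 0.0176), and Runx1, by 0.57 (limma, adjusted p = 0.0220). Neither fall passed under median-ratio scaling or without DT replicate 1 or DT replicate 3.

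Ligands and integrin partners of the members were mostly low or did not pass. Ccl2, the main ligand of Ccr2, was at 4.43, 6.21 and 18.4 RPM in DT replicates 1 to 3, against 0.512, 0.0001, 0.237 and 0.0001 RPM in PBS replicates 1 to 4 (log2 change 2.96; limma, adjusted p = 0.000928). PBS replicates 2 and 4 thus had no read of it, and with voom on estimated reads Ccl2 missed the threshold (adjusted p = 0.0627). The other Ccr2 ligands Ccl7, Ccl8 and Ccl12, the Cx3cr1 ligand Cx3cl1, the Csf1r ligand Il34 and the factor XIII subunit F13b averaged under 1 RPM in both groups and were not tested. Itga4, the integrin chain that binds fibronectin and Vcam1, was lower in DT, at 66.4 ± 7.74 RPM in DT and 122 ± 24.1 RPM in PBS (SD; log2 change -0.85; limma, adjusted p = 0.00707). Of 7 tested genes in this list 1 was higher, 1 lower and 5 did not pass, with a median log2 change of -0.09; these counts are near the 13.4% higher and 18.6% lower among all tested genes.

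**Figure D5:**
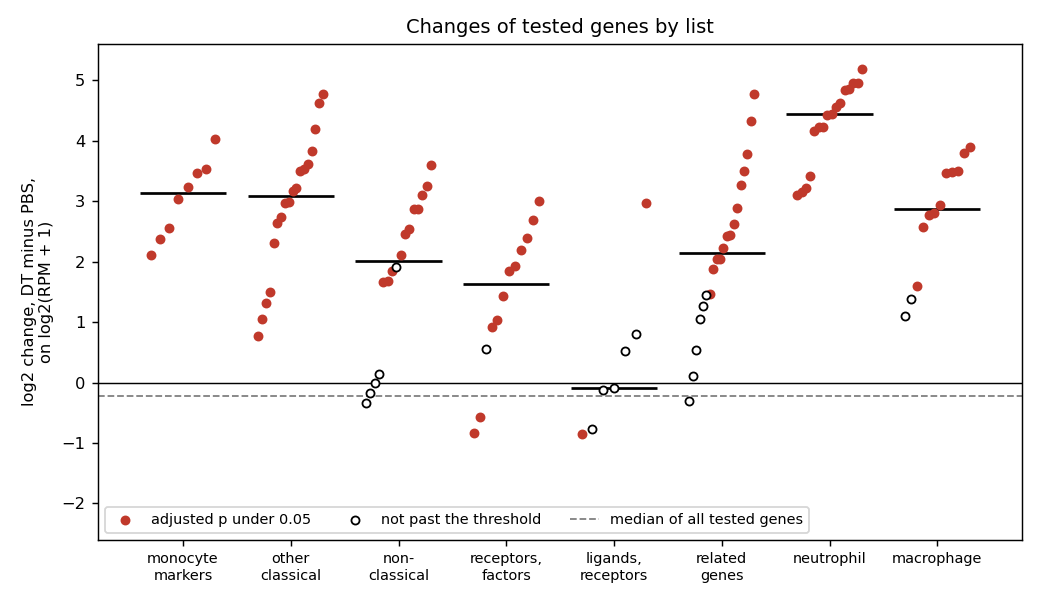
Log2 change of every tested gene in 8 lists (vertical axis; DT minus PBS on log2(RPM + 1)), with lists side by side; filled points passed limma's threshold, open points did not, and bars are list medians. Medians lie at 3.13 for the monocyte markers, 3.08 for other classical, 2.01 for nonclassical and 4.44 for neutrophil genes, and at -0.09 for ligands and receptors of the members.

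Markers of other myeloid cells moved in the same direction as the monocyte markers. All 16 neutrophil markers were higher, with a median log2 change of 4.44 and sums of 61569 to 66122 RPM in DT and 2092 to 4689 RPM in PBS. Their Mmp9, Retnlg, Mmp8, Camp, Ngp and S100a8 rose by 4.16 to 4.85. Of 12 tested markers of resident macrophages 10 were higher and 0 lower, with sums of 406 to 1144 RPM in DT and 45.3 to 90.2 RPM in PBS and a high DT library, replicate 3. Their Vcam1, C1qb, Spic, Cd5l and Slc40a1 rose by 2.77 to 3.90, and Mertk and Cd163, named after their values were seen, did not pass. Lyz2, Cd68, Mpeg1 and other members are also expressed by macrophages, and Lyz2 by neutrophils; the part of these cells in the members' values was not tested. Markers of other blood cells moved in both directions, against 13.4% of all tested genes higher and 18.6% lower. Of 8 tested for classical dendritic cells 6 were higher and 1 lower, and of 8 for plasmacytoid dendritic cells 4 were higher and 1 lower. Zbtb46 itself, named after its values were seen, was the classical dendritic cell marker that did not pass. It was at 1.57 ± 1.55 RPM in DT and 9.21 ± 6.62 RPM in PBS (SD, log2 change -1.89, limma, adjusted p = 0.0556), with overlapping groups. Clec9a, Xcr1 and Batf3 averaged under 1 RPM in both groups and were not tested. Itgax is counted both here and among the nonclassical monocyte genes. Of 10 for T and NK cells 9 were higher and 0 lower, and of 10 for B cells 0 were higher and 8 lower. Of 12 erythroid markers 3 were higher and 9 lower, with a median log2 change of -3.34.

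The members were also set against the neutrophil markers within each library. For each 100 RPM of neutrophil markers there were 10.2, 10.3 and 12.8 RPM of the 8 members in DT replicates 1 to 3 and 15.7, 16.3, 12.7 and 16.4 RPM in PBS replicates 1 to 4. These ranges overlapped through PBS replicate 3, at 12.7, and DT replicate 3, at 12.8. Without Lyz2, which held 82.8% to 84.8% of the members' sum in DT and 66.2% to 77.5% in PBS, the values were 1.75, 1.56 and 2.15 in DT and 5.30, 4.15, 2.85 and 4.80 in PBS, with no overlap. The neutrophil sum rose 18.7-fold in ratios of group means, more than any member. A gene that rose less is therefore lower in DT on this scale, whatever its cell type. These sums give most weight to abundant genes and were not tested.

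For likeness of pattern, centred log2(RPM + 1) profiles over the 7 libraries were compared, and the tested gene with the smallest root-mean-square difference was taken for each member. It was Cfp for Lyz2 (0.15), Ugt1a7c for Cd68 (0.27), Inpp4a for Mpeg1 (0.12), Acvrl1 for Ccr2 (0.12), Map3k9 for Cx3cr1 (0.23), Id2 for F13a1 (0.19), Fcgr3 for Fn1 (0.13) and Alas1 for Ms4a6c (0.21). Cfp, the complement protein properdin, was at 342 ± 55.1 RPM in DT and 24.7 ± 7.64 RPM in PBS (SD). The added 1 RPM compresses the changes of low genes, so a near profile need not mean a like fold. Acvrl1 was at 18.9 ± 4.72 RPM in DT and 1.25 ± 0.907 RPM in PBS (SD). Ccr2 was at 213 ± 46.7 RPM in DT and 23.7 ± 12.3 RPM in PBS (SD). Between members the closest pair was Ccr2 and F13a1, at 0.20, and every other member's nearest fellow member lay at 0.38 to 0.42. All these genes share the same 7 libraries, and 16.1% of tested genes were higher in DT without overlap.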

How the data were processed

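RNA of sorted marrow cells from 3 DT and 4 PBS samples was sequenced. Per the labels' protocols, 1 ng of RNA entered each library, with 14 amplification cycles and single 50-base reads. STAR 2.5.3a, Partek and mm10 are named per the submitters' processing notes; no source used here gives the annotation, quantification or strand settings. A single table was deposited by the authors, whose name states FPKM but whose values are RPM. After removal of an offset of 0.0001, the most frequent low value of each library, taken as 1 read, was the same for genes of under 500 and over 4000 exon bases (64.4% to 68.7% and 89.9% to 93.0% of values near 1 read). Values up to 20 reads were whole within 0.02 reads in 60.8% to 62.8%, so whole reads could not be recovered and the main fit used no count model. Voom, run only as an alternative, took values rounded to estimated reads. Column sums were 753770 to 822063 RPM.

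The design allowed for either unit. Limma 3.58.1 (R 4.3.3) with an intensity trend was fitted to log2(RPM + 1) of genes averaging 1 RPM or more, two-sided, with Benjamini-Hochberg adjustment over all 14100 tested genes at 0.05. Folds are ratios of group means in RPM. On simulated DT against PBS data with 13865 tested genes limma recovered 79.8% of 2-fold and 100% of 4-fold changes, with 3.85% false calls. The simulation gave every gene in both groups the same squared coefficient of variation, 0.0398, and changed few genes. The members' coefficients of variation reached 74.4% in PBS, so these rates do not carry over to such genes. Members and lists were chosen with earlier results of these data known, so no p is adjusted over them. The other genes named are, for each list, up to 4 of lowest p among those that pass, or 2 where none passes, and the 2 most abundant markers of other cell types; these are given for neutrophil, macrophage, megakaryocyte and stromal markers, and the other cell types by sums or not at all. Likeness of pattern left out members, predicted genes, RIKEN clones, pseudogenes, microRNAs and immunoglobulin or T cell receptor segments. Exceptions named for their family, overlap or failure to pass were chosen after their values were seen. Alternatives covered pseudocount, filter, scaling, trend, weights, replicate block and leaving out each library; voom on estimated reads was added after seeing the data. The 95% intervals come from limma and rest on the spread between libraries. Limits based on reads cover counting error only. The rule also names relatives that share a gene cluster or reads with a member, and 1 of these is not reported here.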

Additional observations from a re-analysis of the deposited data

Results flagged for a closer look

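In the 4 PBS libraries Dixon's criterion was applied to 67 named values and marked 4. Ms4a6c in PBS replicate 1, at 45.2 RPM, lay far from the other PBS libraries at 15.1 to 19.4 RPM. The classical monocyte gene Ly6c2 showed the same library apart, at 178 RPM against 81.7 to 96.8 RPM. Ms4a8a in PBS replicate 4 was at the offset of 0.0001 RPM, where the others held about 1 read (0.0257 to 0.0302 RPM). The stromal marker Sparc in PBS replicate 2 was at 13.1 RPM, against 0.388 to 1.19 RPM. Chance alone marks about 1 in 20 groups that are independent. The 67 values share the same 4 libraries, and some share genes, so the count of 4 cannot be judged against that rate.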

How the results depend on the processing

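All 8 monocyte markers remained higher in DT at an adjusted p under 0.05 under every alternative run, including voom on estimated reads, which was added after seeing the data; the highest adjusted p of any member was 0.0402, for Cx3cr1. Leaving out 1 library at a time, the log2 changes ran from 3.87 to 4.18 for Lyz2, 3.16 to 3.72 for Cd68, 2.28 to 2.48 for Mpeg1, 2.92 to 3.52 for Ccr2, 1.78 to 2.43 for Cx3cr1, 2.72 to 3.36 for F13a1, 3.42 to 3.74 for Fn1 and 2.37 to 2.88 for Ms4a6c. The difference in the Ccr2 to Cx3cr1 ratio ran from 0.89 to 1.42 when 1 library was left out, where the exact permutation test has too few splits to pass. With all libraries it passed with a pseudocount of 5 (1.68), under which low values weigh less, and not with 0.1 or 1. Cx3cr1 was at 0.817 to 6.03 RPM in PBS, so a pseudocount of 5 largely sets its PBS values.

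Over all genes, calls higher in DT numbered 1383 to 2108 and calls lower 1208 to 3628 when 1 library was left out, against 1894 and 2622. Lower calls were 1500, 1609 and 1208 without DT replicate 1, 2 and 3, 1694 without a filter and 1259 under median-ratio scaling. Regulators called lower were 1 without a filter, under quantile normalization or with the block, 0 under median-ratio scaling and 0 to 2 when 1 library was left out. Partners called higher were 2 without a filter and 0 with a minimum mean of 5 RPM or with voom; partners called lower were 2 with that minimum or with sample weights and 1 to 2 when 1 library was left out. With that minimum, where fewer genes of these lists are tested, 7 nonclassical and 9 related genes were higher, against 14.3% of all 10696 genes tested. Leaving out 1 library gave 16 to 18 classical, 8 to 11 nonclassical, 8 to 10 regulator, 13 to 15 related, 1 partner, 16 neutrophil and 9 to 11 macrophage genes higher, and 0 lower in the classical, nonclassical, related, neutrophil and macrophage lists. Where no construction above accounts for a change, the cause was not tested.

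Samples that share a replicate number deviated together only weakly (correlations 0.0419, 0.0485 and 0.0103). Among PBS replicates 1 to 3 each DT replicate correlated best with its own number, and unlike numbers were at -0.0482 to 0.0192. DT replicate 3 correlated better with PBS replicate 4 (0.0484). The numbers were not taken as pairs. With the replicate block 1647 genes were higher and 1574 lower, 8 members stayed called, and the mean ratio difference within numbers 1 to 3 was 1.01.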
